A study of Mus musculus with 12 samples.

Results

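The mitochondrial respiratory chain was followed in mouse lung through 94 nuclear genes. They are the genes of the array whose symbol begins with Nduf, Sdh, Uqcr or Atp5, or with Cox followed by a digit from 4 to 8, out of 18193 genes with a single symbol on the platform. A gene was represented by its probe set of highest mean over the 12 arrays. Of the 94 genes, 92 lay above the filter on low levels and were tested among 12921 genes. Ndufb4, at log2 4.30 to 4.85 over the arrays, and Cox7b2, at 4.14 to 4.45, fell below it. The set holds the subunits of complexes I to V and 12 tested assembly factors, and says nothing of the subunits written in mitochondrial DNA, of which 1 of 13 (ND5) was on the array and tested.

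Total RNA of whole lung from mice aged 8 to 12 weeks was hybridised to 12 Affymetrix arrays, 3 in each of 4 groups. Controls received phosphate-buffered saline (PBS). The second group was ventilated mechanically over 4 hours, with a tidal volume set to 30 ml per kg, to produce ventilator-induced lung injury. The next group was given rhPBEF (recombinant human pre-B-cell colony-enhancing factor) by the trachea. Its dose was 20 µg for each mouse, in water at 1.5 µl per gram. The last group had the same rhPBEF and the same ventilation. The labels name no strain, sex or interval after instillation and no PBS route. Because the controls are not described as ventilated, large breaths cannot be told apart from ventilation itself. With PBS given to the controls by an unnamed route, rhPBEF cannot be told apart from its delivery by the trachea in water. Nor do the labels call the replicates separate mice, so that the p-values rest on array-to-array spread, which may be technical. In RNA of a whole organ, fewer cells of a type and less RNA per cell cannot be told apart. The lung epithelial genes were strongly represented on each array, with surfactant protein gene Sftpc at 14.76 to 14.97 and the alveolar type I gene Ager at 14.27 to 14.55.

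The respiratory chain passes electrons from NADH, at complex I, and from succinate, at complex II, through ubiquinone to complex III, cytochrome c and complex IV, where oxygen is reduced to water. Complexes I, III and IV pump protons across the inner membrane, and complex V, the ATP synthase, lets them flow back to make ATP. Most subunits are made from nuclear genes, many of which carry sites for the factors NRF1, ETS-family proteins and YY1 near their start. Lung cells use the chain for ATP and also as a source of reactive oxygen signals, and activated myeloid cells are known to shift their energy supply towards glycolysis.

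The promoters of the 4 members that passed the test below are shown because they carry these motifs at different places. Sequences are RefSeq's, on build GRCm38.p6, 5′ to 3′ on the gene's own strand, from 150 bases before the annotated start to 10 bases after it, with motif matches in capitals. The letters searched on both strands were GCGCATGC for NRF1, CCGGAAG for ETS factors and AAGATGGC for YY1. In Atp5g2 (chr15:102671038-102671197, minus strand) 2 NRF1 matches overlap, beginning 42 and 40 bases before the start. In Ndufa6 (chr15:82354282-82354441, minus strand) the NRF1 match begins 83 bases before it. In Cox8a (chr19:7217607-7217766, minus strand) an ETS match begins 5 bases before the start and runs across it, and another begins at base 33 of the transcript. Ndufs7 (chr10:80249462-80249491, plus strand) is shown by 30 bases around its YY1 match, which begins at base 25 of the transcript.
Atp5g2: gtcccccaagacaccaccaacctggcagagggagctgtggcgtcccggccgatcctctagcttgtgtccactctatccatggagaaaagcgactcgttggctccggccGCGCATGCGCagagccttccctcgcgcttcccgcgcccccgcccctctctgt
Ndufa6: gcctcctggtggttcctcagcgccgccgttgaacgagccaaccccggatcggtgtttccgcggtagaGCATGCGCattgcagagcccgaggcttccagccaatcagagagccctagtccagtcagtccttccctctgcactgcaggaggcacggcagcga
Cox8a: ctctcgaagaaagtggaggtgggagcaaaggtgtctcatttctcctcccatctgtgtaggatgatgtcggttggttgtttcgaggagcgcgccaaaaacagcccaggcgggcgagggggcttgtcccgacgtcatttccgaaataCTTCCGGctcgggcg
Ndufs7: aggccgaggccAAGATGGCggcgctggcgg

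Such motifs were frequent across the family. RefSeq listed 83 promoters for 78 of the 94 genes, each 300 bases long (250 before the start and 50 after). An NRF1 match was present in 13.3% of them, against 2.71% of all 32851 mouse promoters of that length. For ETS the shares were 26.5% and 8.86%, and for YY1 12.0% and 2.75%. Any of the 3 motifs was found in 36 of the 83 promoters (43.4%), against 13.3% of all promoters. A match describes letters only, and binding was not measured.

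The chain lay slightly below control in all 3 treated groups. The median tested member differed from control by -0.09 on the log2 scale after rhPBEF, by -0.11 after ventilation and by -0.13 after both, which are levels lower by 6.03%, 7.46% and 8.81%. The same medians over all 12921 genes were -0.07, -0.04 and -0.06. Of the 92 members, 82 were below control after rhPBEF, 80 after ventilation and 84 after both, or 89.1%, 87.0% and 91.3%, where all genes gave 65.7%, 59.0% and 61.8%. All 3 comparisons use the same 3 control arrays, so their directions are not independent of each other.

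The average over the 92 members gives 1 value per array. Relative to the control mean it was 0.06, -0.07 and 0.01 on the 3 controls, and -0.10, -0.23 and -0.01 on the ventilated arrays. After rhPBEF it was -0.09, -0.06 and -0.12, and after both treatments -0.19, -0.14 and -0.09. The 3 arrays of the combined group lay below the lowest control, while the ventilated and the rhPBEF arrays overlapped the control range. This separation was not particular to the chain. The mean over all 12921 genes was -0.039 to -0.014 on the combined arrays and -0.044 to -0.018 on the rhPBEF arrays. Its lowest control was at -0.011. Controls themselves differed as a family: 13 of 92 members were below the control mean on control replicate 1 and 85 of 92 on control replicate 2, against 49.0% and 54.7% of all genes. On the combined arrays 83, 80 and 73 members were below it. The control arrays thus differed by up to 0.13 from each other with no treatment, beside a mean of -0.14 for the combined group. The adipocyte markers (7 of 12 tested) and the cardiac markers were also highest among controls on replicate 1, at 0.69 and 0.55 above the control mean. Their part in the family's level was not tested.

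**Figure D1:**
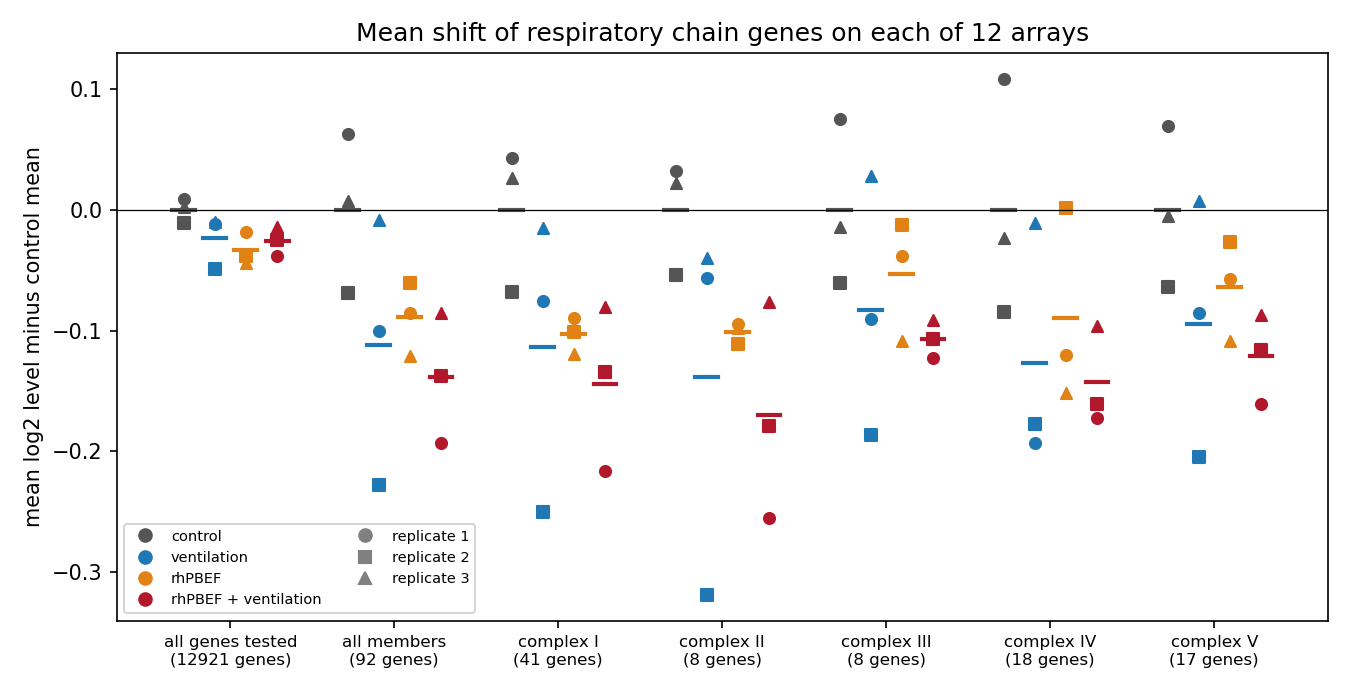
Mean log2 level of each gene set on each array minus the mean of the 3 control arrays (y axis), for all genes tested, all members and the 5 complexes (x axis). Points are single arrays, shapes give the replicate number and short lines the group means. For all members the combined arrays sit between -0.19 and -0.09, below the 3 controls, and ventilated replicate 2 is the lowest array at -0.23. For all genes tested the combined arrays, at -0.039 to -0.014, are also below the 3 controls.

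In the comparison of both treatments with control, 4 members passed an adjusted p of 0.05 (limma, Benjamini-Hochberg over 12921 genes), all lower. That is 4 of 92, where 4.86% of all genes were called lower and 8.79% in either direction, so the share of members called was near the background. At an unadjusted p under 0.05, 28 members were lower and 2 higher, beside 17.9% and 9.64% of all genes. For 42 members the combined arrays were all below the controls, beside 24.4% of all genes. Median residual SD was 0.10 for members and 0.15 for all genes tested, at a median level of 11.23 and 8.92.

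The count of 4 depended on single arrays. It was 0 without control replicate 1, combined replicate 1 or combined replicate 2, and 1 without control replicate 2, control replicate 3 or rhPBEF replicate 1. It was 2 without ventilation replicate 1, rhPBEF replicate 2 or rhPBEF replicate 3, and 4 without ventilation replicate 3. Leaving out ventilation replicate 2 gave 14, and leaving out combined replicate 3 gave 11, 9 of them lower. The median of the 92 members stayed between -0.18 and -0.09 in these 12 fits. Under other settings the count was 1 with array medians centred or without the 2 arrays high in skeletal muscle genes, and 2 with no filter, with only the compared groups fitted or with all probe sets tested. It was 4 with quantile normalisation, 5 with a filter at the 60th percentile or the mean of a gene's probe sets, and 6 with a trended and robust prior. Array weights gave 47 and gene-by-gene weights 38, where 58.7% and 44.8% of all genes were called. Ndufs7 passed in each of the 12 alternatives other than leaving out a single array, while Cox8a passed in 9, Atp5g2 in 7 and Ndufa6 in 6.

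**Figure D2:**
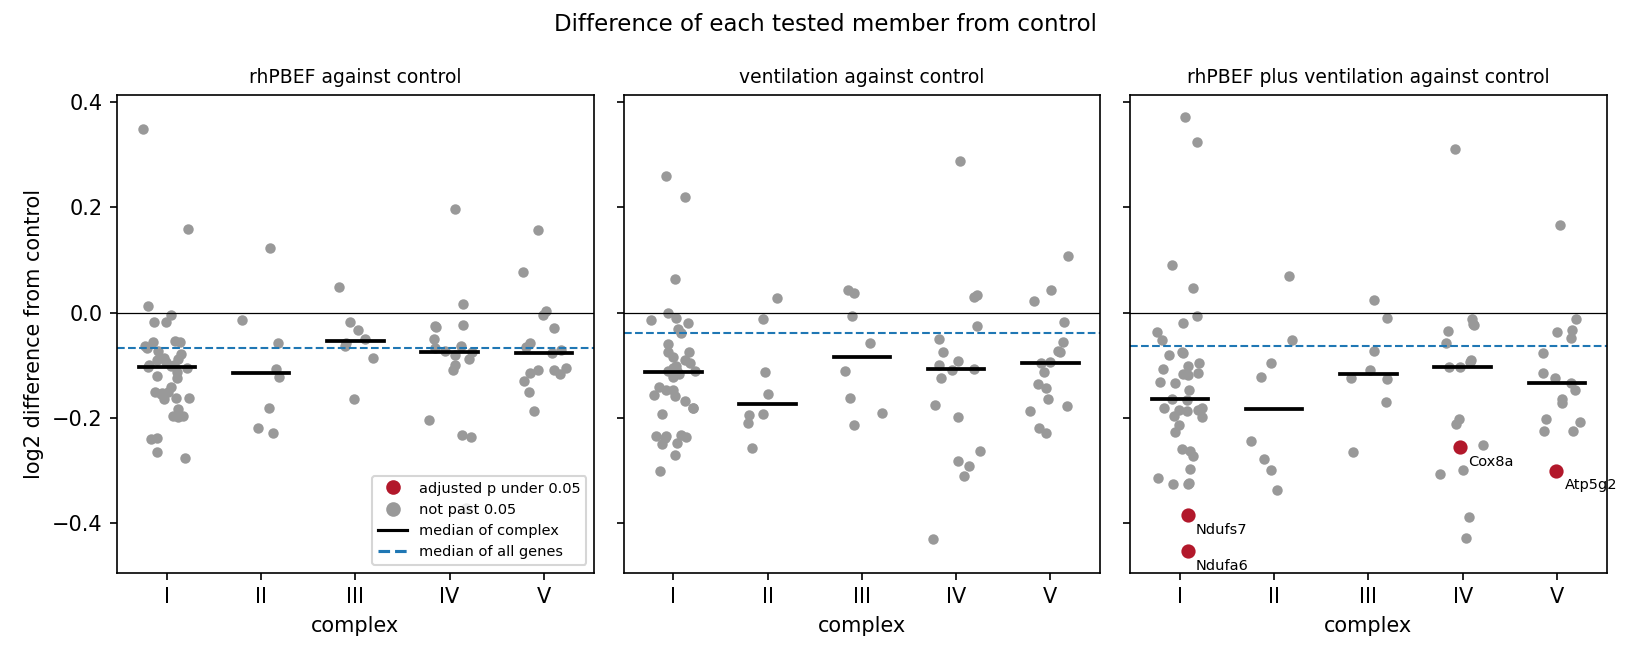
Log2 difference from control (y axis) of each of the 92 tested members by complex (x axis), in the 3 comparisons with control. Black lines are the medians of each complex, the dashed line is the median of all genes tested and red points passed an adjusted p of 0.05; the 4 red points (Ndufs7, Ndufa6, Cox8a, Atp5g2) are all in the combined comparison, where the complex medians run from -0.18 to -0.10.

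Complex I, the NADH dehydrogenase, held 2 of the 4 calls. Of its 41 tested genes 37 were below control after both treatments, with a median of -0.17, after -0.10 with rhPBEF and -0.11 with ventilation. Ndufs7 encodes the core subunit that binds the last iron-sulfur cluster before ubiquinone. Its log2 level was 11.20, 11.09 and 11.12 on the controls and 10.68, 10.76 and 10.81 on the combined arrays. The ventilated arrays read 10.95, 10.80 and 10.92 and the rhPBEF arrays 10.88, 10.84 and 10.90. Every treated array lay below every control, and the combined group overlapped the ventilated one through a single array. Ndufs7 fell after both treatments by 0.39 ± 0.07 (SE), a level lower by 23.5%, with an adjusted p of 0.0146 (limma). Its second probe set past the filter differed by -0.20. The call was lost without control replicate 1 (adjusted p = 0.0713), combined replicate 1 (0.0713) or combined replicate 2 (0.059).

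Ndufa6 is an accessory subunit of the matrix arm of complex I that binds acyl carrier protein. It read 11.22, 11.11 and 11.04 on the controls, 10.93, 10.99 and 10.74 after ventilation and 10.76, 10.92 and 10.96 after rhPBEF. The combined arrays read 10.44, 10.64 and 10.91. Each of these 3 was below the controls, but the third lay within the range of the single treatments. The fall after both was 0.45 ± 0.12 (SE), or 27.0%, with an adjusted p of 0.0439. It passed in 3 of 12 fits with 1 array left out (adjusted p 0.00725 to 0.179), namely those without ventilation replicate 2, ventilation replicate 3 or combined replicate 3, and was lost without any other array.

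The other genes of complex I were mostly lower by less than these. All 6 tested core subunits (Ndufs1, Ndufs3, Ndufs7, Ndufs8, Ndufv1 and Ndufv2) were below control after both treatments, from -0.39 to -0.10, and 4 of them did not overlap it, beside 24.4% of all genes. Among 27 accessory subunits 25 were below control, with a median of -0.15. Ndufb3, of the membrane arm, missed the threshold at -0.33 ± 0.09 (adjusted p = 0.0527). Ndufa8 (-0.32, adjusted p = 0.0582) and Ndufb5 (-0.26, adjusted p = 0.0654) did as well.

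A few members of complex I were above control. Ndufb1, a small membrane-arm subunit, was at 7.31, 7.26 and 7.18 on the controls and at 7.79, 7.46 and 7.48 after both treatments, so that its groups did not overlap. It was read by 1 probe set of low level, with a mean of 7.48 beside a median of 11.23 over the tested members. Its difference was 0.32 ± 0.11 (adjusted p = 0.0783), and 0.35 (adjusted p = 0.138) after rhPBEF. It passed without combined replicate 3 (adjusted p = 0.0495). Ndufaf4, an early assembly factor singled out after its values were seen, read 9.43, 9.39 and 9.50 on the controls and 9.96, 9.90 and 9.58 after both, a difference of 0.37 ± 0.15 (adjusted p = 0.126) that passed without combined replicate 3 (0.0417). The combined arrays of Ndufaf4 were all above the controls, while ventilated replicate 2 (9.38) and rhPBEF replicate 3 (9.36) were below all of them.

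**Figure D3:**
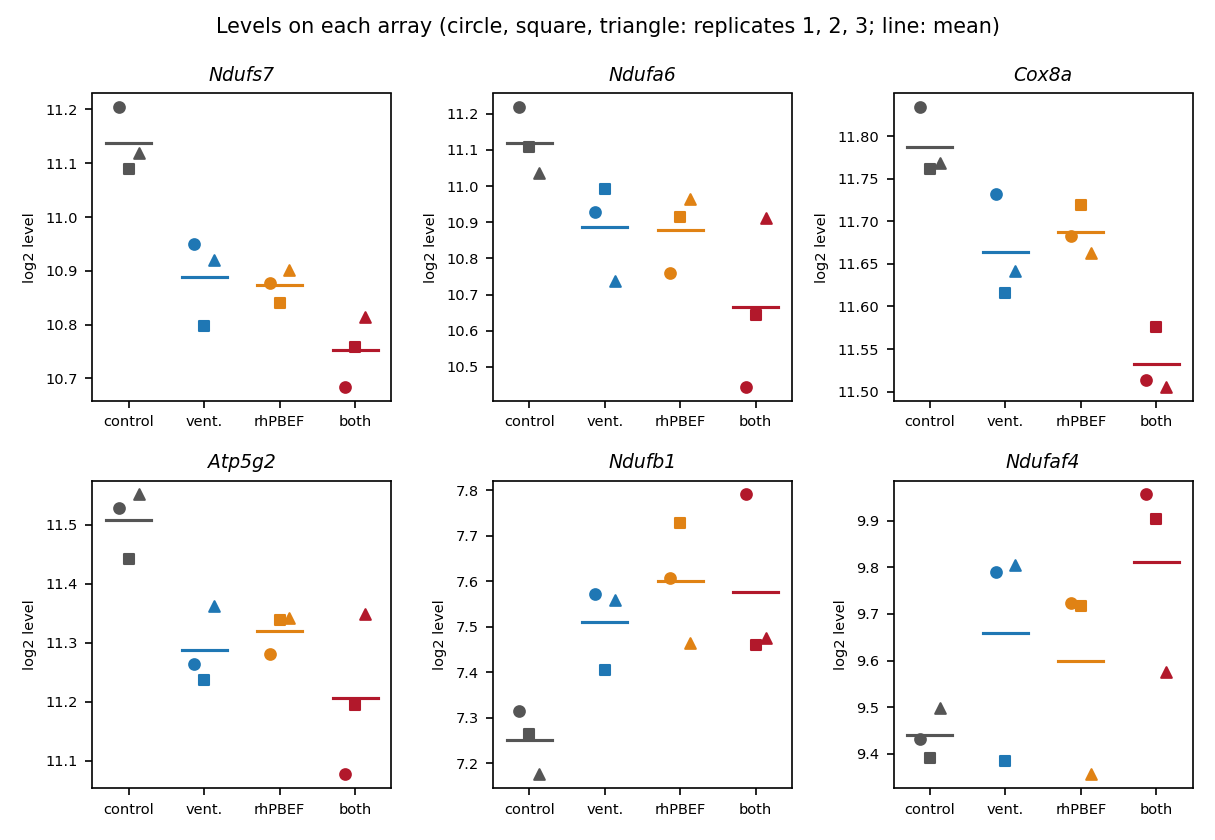
Log2 level (y axis) of the 4 members that passed in the combined comparison, and of Ndufb1 and Ndufaf4, on each array of the 4 groups (x axis; vent. is ventilation, both is rhPBEF plus ventilation). Shapes give the replicate and lines the group mean; each panel has its own axis range, and for Ndufs7 the controls at 11.09 to 11.20 stand clear of all 9 treated arrays, which lie at 10.68 to 10.95.

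Complex II, succinate dehydrogenase, is made of 4 subunits that are all nuclear. None passed the test. The flavoprotein Sdha read 11.78, 11.71 and 11.72 on the controls and 11.36, 11.48 and 11.63 after both, and the iron-sulfur subunit Sdhb read 11.72, 11.57 and 11.74 against 11.39, 11.41 and 11.40. On the probe sets used, the combined arrays of both genes were all below the controls. The differences were -0.24 ± 0.09 for Sdha (adjusted p = 0.101) and -0.28 ± 0.09 for Sdhb (adjusted p = 0.0736). Sdha passed without combined replicate 3 (0.0305) and Sdhb without ventilation replicate 2 (0.0343). The other probe sets of Sdha past the filter differed by -0.40 and 0.08 after both, so its direction was not shared by all of them. The membrane anchors differed less, Sdhc by -0.05 ± 0.11 with overlapping groups and Sdhd by -0.12 ± 0.11. A second probe set of Sdhd past the filter went the other way, by 0.10 after both. On the probe set used, Sdhd read 11.39, 11.25 and 11.22 on the controls and 11.14, 11.17 and 11.18 after both, with no overlap. Such separation was seen in 4 of the 8 tested genes of the complex, beside 24.4% of all genes. Over the 8 tested genes of complex II, assembly factors included, the median was -0.11 after rhPBEF, -0.17 after ventilation and -0.18 after both.

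Complex III, the cytochrome bc1 complex, had no call. Its 8 tested genes had a median of -0.05 after rhPBEF, -0.08 after ventilation and -0.12 after both, and 7 of 8 were below control in the combined group. Uqcr11, a small subunit singled out after its values were seen, differed most, by -0.26 ± 0.09 (adjusted p = 0.0807).

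Complex IV, cytochrome c oxidase, had 1 call among 18 tested genes. Cox8a encodes the ubiquitous form of its smallest subunit. Its level was 11.83, 11.76 and 11.77 on the controls, 11.73, 11.62 and 11.64 after ventilation, and 11.68, 11.72 and 11.66 after rhPBEF. The combined arrays read 11.51, 11.58 and 11.51. They lay below all 9 other arrays, and the single treatments lay between them and the controls. The fall after both was 0.26 ± 0.06 (SE), or 16.2%, with an adjusted p of 0.0379. The probe set belongs to a design class that can share sequence with other transcripts, and a second one past the filter, outside that class, differed by -0.26. The call was kept in 6 of 12 fits with 1 array left out (adjusted p 0.0263 to 0.144). It was lost without any of the 3 controls, combined replicate 1, combined replicate 2 or rhPBEF replicate 1.

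Several complex IV subunits exist as a ubiquitous form and a form of heart and skeletal muscle. The muscle forms were spread widely on the control arrays. The muscle form Cox7a1 ranged from 8.13 to 9.16 on the controls, 7.62 to 8.79 after ventilation, 7.61 to 8.75 after rhPBEF and 7.99 to 8.40 after both. Its ubiquitous counterpart Cox7a2 ranged from 12.51 to 12.62 on the controls and from 12.53 to 12.57 after both. On the controls the muscle form Cox6a2 ranged from 9.95 to 10.62 and Cox8b from 8.42 to 9.39, and after both Cox8b ranged from 8.54 to 8.65. None of the muscle forms passed: after both treatments Cox7a1 differed by -0.43 ± 0.36, Cox6a2 by -0.39 ± 0.21 and Cox8b by -0.25 ± 0.28, with overlapping groups for all 3. The sign of Cox8b turned without control replicate 1 (0.02), and that of Cox7a1 after ventilation (-0.28) turned without control replicate 1 (0.01) or ventilation replicate 1 (0.06).

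On the same arrays the cardiac muscle markers moved in a like order. Their mean over 14 of 14 tested genes, relative to the control mean, was 0.55, -0.40 and -0.15 on the controls and -1.57, -0.15 and 0.13 after ventilation. It was -0.38, 0.21 and -0.84 after rhPBEF and -0.63, -0.64 and -0.16 after both. Cox7a1, Cox6a2 and Cox8b were highest on control replicate 1, which had the highest cardiac mean, and Cox6a2 and Cox8b were lowest on ventilation replicate 1, which had the lowest. Skeletal muscle markers (6 of 12 tested) stood out on ventilation replicate 3 (2.59) and rhPBEF replicate 2 (3.65), with the other arrays between -0.34 and 0.18. Within their groups the muscle forms, and the cardiac mean, were also highest on these arrays. There Cox7a1 read 8.79 and 8.75, Cox6a2 10.30 and 10.37, and Cox8b 8.92 and 9.24. In the combined comparison 13 of 14 cardiac markers were below control and none passed the test. The amounts of heart and skeletal muscle tissue in the samples, and their part in the isoform levels, were not tested.

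**Figure D4:**
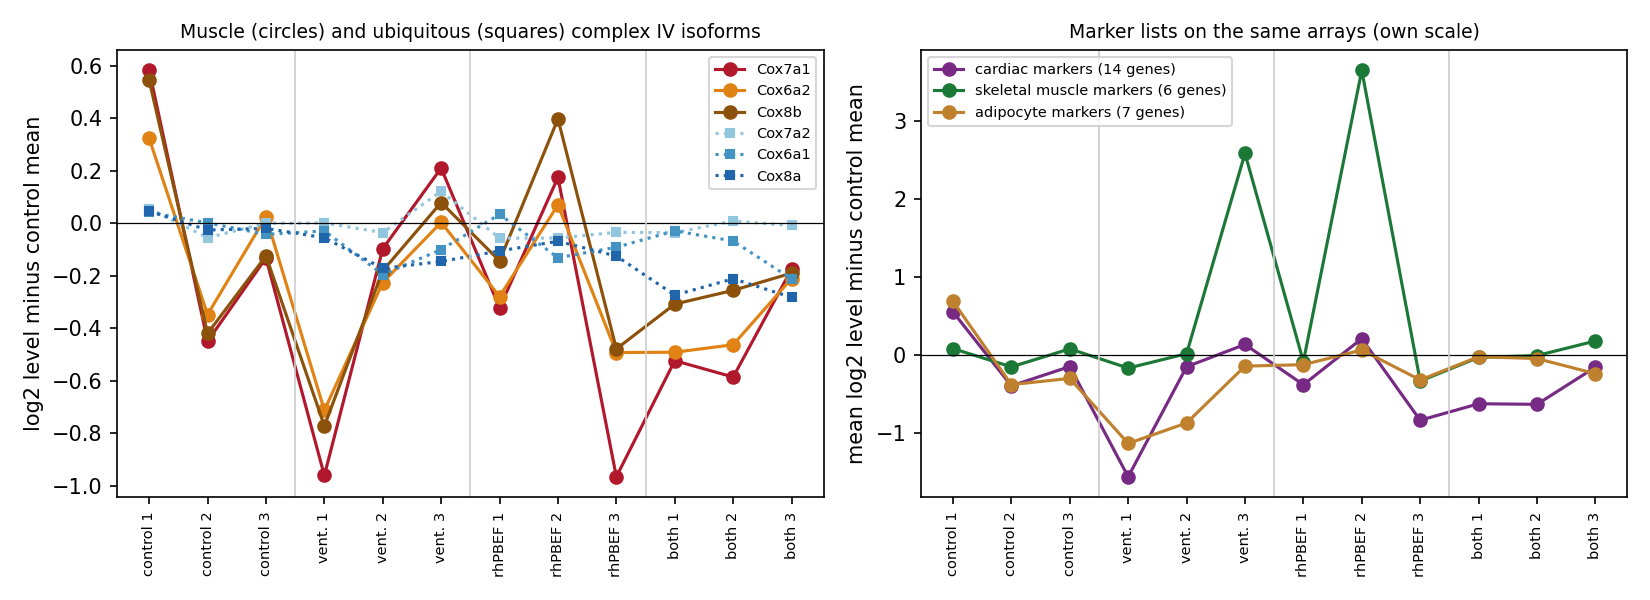
Left, log2 level of 3 muscle forms (circles) and 3 ubiquitous forms (squares) of complex IV subunits on each of the 12 arrays (x axis), minus the control mean (y axis). Right, mean of the cardiac, skeletal muscle and adipocyte marker lists on the same arrays and relative to the same mean, on its own scale; control replicate 1 is high and ventilation replicate 1 low for the muscle forms and for the cardiac markers (0.55 and -1.57), and the skeletal list peaks at 3.65 on rhPBEF replicate 2.

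Other isoform pairs of complex IV gave no call. Cox4i1, the ubiquitous form of subunit IV, differed by -0.10 ± 0.07 after both treatments, and Cox4i2, the form prominent in lung, by -0.20 ± 0.10. Cox6a1 (-0.10), Cox6b1 (-0.09), the testis forms Cox6b2 (-0.21) and Cox8c (-0.03), and Cox7a2 (-0.01) did not pass either. Cox7a2 and Cox8c turned to 0.02 and 0.0014 when the arrays were centred on their medians. Ndufa4, which is named for complex I but belongs to complex IV, read 12.27, 12.13 and 12.08 on the controls and 12.06, 12.09 and 12.16 after both, a difference of -0.06 ± 0.10. Its relative Ndufa4l2, known as a target of hypoxia-inducible factor, read 10.06, 10.03 and 9.97 on the controls and 9.74, 9.22 and 9.80 after ventilation. Each ventilated array of Ndufa4l2 was below each control. The difference was -0.43 ± 0.14 (adjusted p = 0.205) after ventilation and -0.31 ± 0.14 (adjusted p = 0.174) after both, and the latter passed without ventilation replicate 2 (0.0371).

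Complex V, the ATP synthase, had 1 call among 17 tested genes. Atp5g2, like the members Atp5g1 and Atp5g3, encodes subunit c, of which the proton-driven rotor ring is built. It read 11.53, 11.44 and 11.55 on the controls, 11.26, 11.24 and 11.36 after ventilation and 11.28, 11.34 and 11.34 after rhPBEF. The combined arrays read 11.08, 11.19 and 11.35. All 9 treated arrays were below the controls, and combined replicate 3 lay within the range of the single treatments. The fall after both was 0.30 ± 0.08 (SE), or 18.8%, with an adjusted p of 0.0454. It passed in 3 of 12 fits with 1 array left out (adjusted p 0.0109 to 0.193), those without ventilation replicate 2, ventilation replicate 3 or combined replicate 3, and in no other. Among the subunit c genes only Atp5g2 was called. Atp5g3 averaged 13.25 on the controls and 13.21 after both, with overlapping groups. Atp5g1 averaged 10.60 and 10.43. Its combined arrays, at 10.44, 10.50 and 10.35, were all below its controls at 10.72, 10.51 and 10.58, beside 24.4% of all genes. Whether the subunit c genes differed from each other in their response was not tested.

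The catalytic F1 head of complex V, a group singled out with its values known, was lower as a whole without a call. Its 5 genes were all below control in each treated group, with medians of -0.11, -0.14 and -0.21. In the combined group the alpha subunit Atp5a1 differed by -0.23 ± 0.07 (adjusted p = 0.0663), the beta subunit Atp5b by -0.21 ± 0.07 (0.0803), gamma Atp5c1 by -0.23 ± 0.08 (0.102) and delta Atp5d by -0.20 ± 0.08 (0.140). The combined arrays of 4 of the 5 genes were all below the controls, beside 24.4% of all genes.

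Neither treatment alone gave a call among the members. After rhPBEF 0 of 92 passed, where 1.22% of all genes did, and at an unadjusted p under 0.05 in limma 4 were lower and 1 higher, beside 12.7% and 5.60% of all genes. The 5 of smallest p were Ndufs7 (-0.27, adjusted p = 0.107), Ndufb1 (0.35), Ndufb3 (-0.28), the assembly factor Ndufaf5 (-0.24) and Atp5g2 (-0.19). For 29 members all rhPBEF arrays were below the controls, beside 24.0% of all genes. After ventilation 0 of 92 passed, beside 0.00774% of all genes, and 14 were lower and 1 higher at an unadjusted p under 0.05, beside 9.95% and 5.56%. These were led by Ndufs7 (-0.25, adjusted p = 0.180), Ndufa4l2 (-0.43), Ndufa10 (-0.23), Sdhb (-0.26) and Ndufa8 (-0.27). For 22 members all ventilated arrays were below the controls, beside 15.5%. With array weights estimated from the data, the members called became 2 after rhPBEF and 7 after ventilation, beside 12.6% and 8.69% of all genes. When those weights were estimated gene by gene, the members called became 2 and 0, beside 11.2% and 2.16% of all genes.

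Adding one treatment to the other gave no call either. Against ventilation alone the combined group had 0 of 92 members called (0.325% of all genes) and 2 at an unadjusted p under 0.05 (9.98% of all genes), Ndufb3 (-0.21) and the assembly factor Sdhaf3 (-0.33), with a median of -0.02 over members and over all genes. The count called was 10 with array weights and 1 with weights by gene, beside 23.4% and 5.22% of all genes. Against rhPBEF alone it had 0 called (0.00774% of all genes) and 2 at an unadjusted p under 0.05 (3.77%), Cox8a (-0.16) and Ndufa8 (-0.22), with a median of -0.05 where all genes gave 0.005. The interaction, the amount by which the combined difference departs from the sum of the single ones, was called in 0 members and 0% of all genes. At an unadjusted p under 0.05 it counted 0 members and 2.23% of all genes, and its median over members was 0.07 (all genes 0.05). The difference between the combined group and either single treatment was therefore not resolved for any member, and Ndufb1 came nearest in the interaction at -0.28 ± 0.15 (adjusted p = 0.998).

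Lists of genes that serve the chain without being part of it are given for the combined group, beside 4.86% of all genes called lower and 3.93% called higher. Most of these lists held calls at a share near that background. Of 34 tested assembly factors outside the name rule 2 fell: Surf1, for complex IV, by 0.43 ± 0.09 (adjusted p = 0.022), and Cmc2, by 0.34 ± 0.08 (0.0321), with a list median of -0.09. Among 17 genes of ubiquinone synthesis and electron carriers 1 fell, Coq9, by 0.41 ± 0.10 (0.0369), with a median of -0.15. In the citric acid cycle 3 of 17 fell, the isocitrate dehydrogenases Idh2 (by 0.62), Idh3g (by 0.37) and Idh3b (by 0.28), with a median of -0.07. Of 25 regulators of mitochondrial biogenesis 1 fell, the mitochondrial deacetylase Sirt3, by 0.50 ± 0.11 (0.0229). The coactivator Ppargc1a differed by -0.43 ± 0.39 (adjusted p = 0.513) and Ppargc1b by -0.15 ± 0.10 (0.365). Mitochondrial ribosomal proteins had 1 higher and 4 lower of 76, and cytosolic ones 0 of 43 in limma (2 higher and 2 lower at an unadjusted p under 0.05). The mitochondrial ND5 differed by -0.05 ± 0.08.

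A few genes that act on the chain were higher instead. Acod1 makes itaconate, an inhibitor of succinate dehydrogenase. It read 6.02, 6.07 and 6.24 on the controls and 10.26, 9.39 and 6.91 after both treatments. The combined arrays were all above the controls but spread widely, with a difference of 2.74 ± 0.76 (adjusted p = 0.0491). The controls of Acod1 lie under the filter level of 6.42, and the gene entered the test through its treated arrays. Its difference is therefore no measure of a fold, and its call is not used as support. With no filter its adjusted p in limma was 0.0592. The gene listed as AA467197 encodes Nmes1, a relative of Ndufa4 known to take its place in complex IV during inflammation. It read 6.53, 6.47 and 6.98 on the controls, 8.90, 9.16 and 8.39 after rhPBEF and 9.64, 9.29 and 7.60 after both, a rise after both of 2.18 ± 0.50 (adjusted p = 0.0287) from controls close to the filter level. After rhPBEF alone AA467197 differed by 2.16 ± 0.50 (adjusted p = 0.0677). Sod2, the superoxide dismutase of the matrix, rose by 1.33 ± 0.22 after rhPBEF (adjusted p = 0.0174) and by 1.43 ± 0.22 after both (0.00745). After ventilation it read 11.15, 10.99 and 11.30, within or near the control range of 11.10 to 11.34. Hif1a, the oxygen-regulated transcription factor, rose after both by 1.05 ± 0.19 (0.0138). These 4, with Acod1 admitted through its treated arrays, were the calls among 12 tested genes of this list.

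The called genes of glycolysis went in both directions. Of 21 tested genes 4 rose and 3 fell after both treatments, beside 3.93% and 4.86% of all genes. The list median was -0.06, and so was that of all genes. Relative to the control mean, the list mean was 0.03 to 0.09 on the combined arrays and -0.08 to 0.08 on the controls. Pfkfb3, which makes the activator of phosphofructokinase, rose by 1.40 ± 0.31, hexokinase Hk2 by 1.09 ± 0.25 and the glucose transporter Slc2a1 by 0.82 ± 0.22. Pdk2, a kinase that shuts pyruvate out of the citric acid cycle, fell by 0.81 ± 0.14 (adjusted p = 0.0124). The adjusted p of the 3 rises was 0.0244, 0.0271 and 0.0435.

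These calls on related genes also rested on few arrays. Sod2 after both treatments passed in 12 of 12 fits with 1 array left out (adjusted p 8.66e-05 to 0.0395), and after rhPBEF in 7 of 12. The rhPBEF call was lost without control replicate 1 (0.055), control replicate 2 (0.0859), control replicate 3 (0.09), rhPBEF replicate 1 (0.0777) or rhPBEF replicate 2 (0.0778). The other 14 calls named for related genes passed in 3 to 8 of 12. All 14 were lost without control replicate 1, control replicate 3 or combined replicate 1, and each but Surf1 was lost without combined replicate 2. Control replicate 2 ended each but Pdk2. Acod1 and Idh3g were also lost without ventilation replicate 1 or any of the rhPBEF arrays, and Coq9 and Slc2a1 without rhPBEF replicate 1. Among alternatives that did not leave out a single array, Acod1 passed in 6 of 11, Idh3g in 7 of 12, Slc2a1 in 9 of 12 and Idh2 in 10 of 12. Coq9, Idh3b, Cmc2 and Sod2 after rhPBEF passed in 11 of 12, and Sod2 was lost (adjusted p = 0.0829) when the 2 arrays high in skeletal muscle genes were dropped. The other calls named from these lists passed in 12 of 12.

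**Figure D5:**
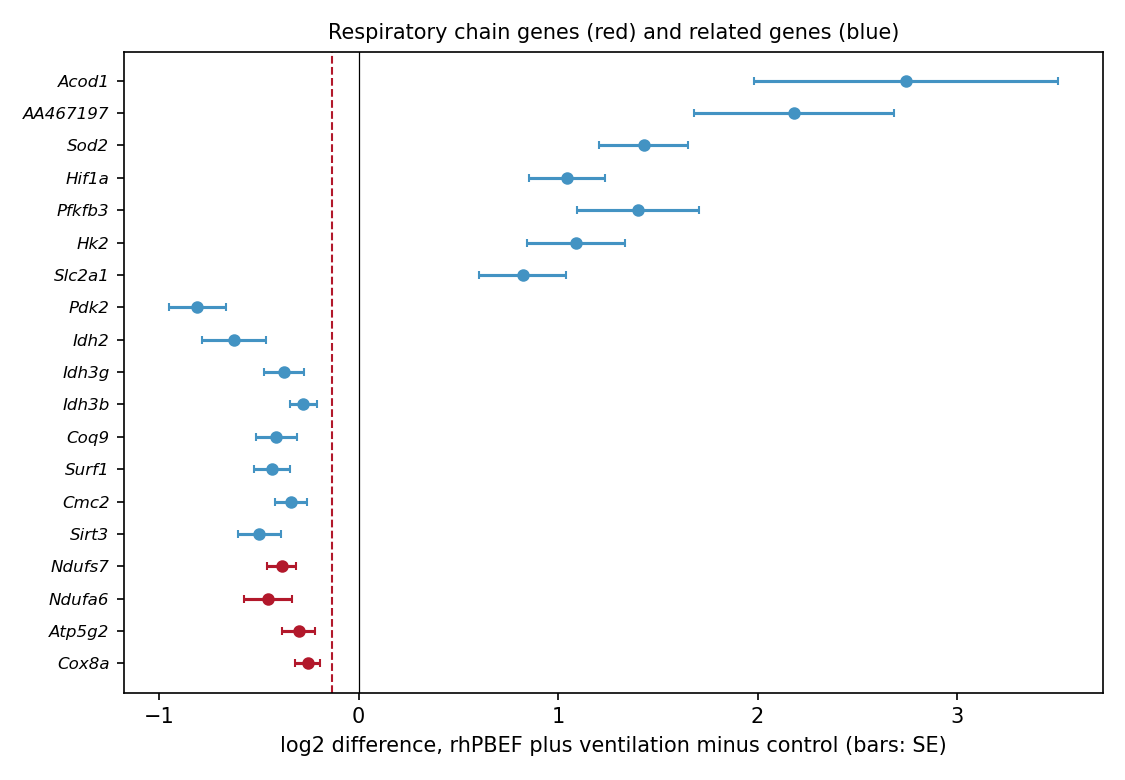
Log2 difference of the combined group from control (x axis; bars are the SE) for the 4 called members (red) and for the 15 genes named from metabolic lists that passed an adjusted p of 0.05 (blue). The dashed red line is the median of all 92 members at -0.13. AA467197, at 2.18, lies far to the right of every respiratory chain gene shown. Acod1, at 2.74, entered the test through its treated arrays, with controls under the filter level.

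Markers of several cell types also differed between the groups. Neutrophil markers, the mean of 13 tested genes, stood above the control mean in each treated group. The amount was 0.68 to 2.55 after ventilation, 2.01 to 2.35 after rhPBEF and 1.72 to 3.27 after both. In the combined group 9 of 13 were called higher, beside 3.93% of all genes. Clec4e, with controls at 6.23, 6.24 and 5.87, lay there under the filter level of 6.42 and entered the test through its treated arrays. The neutrophil mean, and possibly the count, therefore owe a part to the filter. S100a8, with controls at 9.87 to 10.77, was well above that level. Endothelial markers (13 tested) were at -0.63 to -0.37 after ventilation, -0.30 to -0.16 after rhPBEF and -0.59 to -0.25 after both. After both, 4 of the 13 were called lower, beside 4.86% of all genes. Adipocyte markers were at -1.14 to -0.15 after ventilation, -0.32 to 0.06 after rhPBEF and -0.24 to -0.02 after both. Their controls ran from -0.38 to 0.69. In the combined group 5 of 7 were below control and 2 above, and 2 of 7 were called lower, beside 4.86% of all genes. Cidec fell there from a control mean of 8.42 to 7.38 and Pck1 from 8.20 to 7.02, while Dio2 rose from 6.25 to 8.88. The control mean of Dio2 lies under the filter level of 6.42, and the gene entered the test through its treated arrays. The adipocyte mean thus joins genes that moved in opposite directions. Macrophage markers had 1 of 11 called in each direction, beside 3.93% of all genes called higher and 4.86% lower. Alveolar epithelial markers had 0 of 12 called in limma (1 higher and 3 lower at an unadjusted p under 0.05). The part of these cell types in the levels of the respiratory chain genes was not tested.

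The direction of a member was not always shared by its probe sets. For 48 members with more than 1 probe set past the filter, all of these had the same sign in 36 after rhPBEF, in 32 after ventilation and in 33 after both. Cox7c, singled out after its values were seen, had 1 of its 2 probe sets past the filter, close to it at 6.64 to 7.43, with a difference of 0.31 after both. Atp5pb, of the stator stalk of complex V, was also chosen in this way and was higher on both of its probe sets, by 0.17 and 0.15, with neither passing the test.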

How the data were processed

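The 12 arrays were used as the authors' deposited table of log2 values, 1 per probe set and array. MAS5 and GCRMA are named in the submitters' processing notes, with no role or version; background correction and normalisation were not given in the sources read. The lowest value was 2.99 and the highest 15.02, the array medians lay between 7.00 and 7.07, and 0 columns were identical. The table holds no detection calls, and the number of arrays limits the precision.

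Control probe sets (64 of 45101) were left out, and probe sets were kept above the 40th percentile of the 12-array mean, log2 6.42. Of 45037 probe sets 34945 carried 1 symbol, 932 several and 9160 none. Only the first kind was used. Groups came from the sample titles. A description field that calls every animal a control was not used. A model of 4 group means was fitted in R 4.3.3 with limma 3.58.1 (eBayes after lmFit; degrees of freedom were 8 residual and 2.99 prior), with Benjamini-Hochberg adjustment within each comparison. An exact test of 3 arrays against 3 cannot give a two-sided p below 0.1. The steps were tested on simulated data.

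The members, gene lists and motifs were chosen with earlier results of these data known. Members named were those past 0.05, the 5 of smallest p where a comparison had no call, the 4 Sdh genes, Ndufa4 and the isoform pairs. From each list up to 4 called genes of largest change were named, otherwise the 2 of smallest p, and Acod1, Nmes1, Ppargc1a and Ppargc1b always. The ribosome and cell type lists, and the related lists outside the combined comparison, are mostly given as counts, without the genes this rule selects. All 94 members matched the reference gene table by Entrez identifier, and 0 changed symbol. Figures were drawn with matplotlib 3.10.9.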

Additional observations from a re-analysis of the deposited data

How the results depend on the processing

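The members' median stayed below 0 in the 3 comparisons with control under the 23 alternatives that give it, leave-one-out fits included. It ran from -0.13 to -0.05 after rhPBEF, from -0.17 to -0.06 after ventilation and from -0.18 to -0.09 after both. The count of 4 members called after both treatments was 2 with no filter, 1 with array medians centred, 2 with only the compared groups fitted, 1 without the 2 arrays high in skeletal muscle genes, 2 when all probe sets were tested, and 0 to 14 with 1 array left out. With array weights it was 47 (58.7% of all genes called), a fit whose weights stopped before they converged and gave combined replicate 2 a weight of 22.7. Gene-by-gene weights, an alternative chosen after seeing the data, gave 38 (44.8% of all genes). Array weights also gave 2 calls after rhPBEF (12.6% of all genes called), 7 after ventilation (8.69%) and 10 against ventilation alone (23.4%). Gene-by-gene weights gave 2 (11.2%), 0 (2.16%) and 1 (5.22%). The cause was not tested. Signs turned for Cox7a2 after both (0.0238 with medians centred, 0.0165 with array weights, 0.00646 with gene-by-gene weights, and -0.0396 to 0.0156 with 1 array left out), Cox8c after both (0.0014 with medians centred), Cox8b after both (-0.46 to 0.0208 with 1 array left out, the latter without control replicate 1) and Cox7a1 after ventilation (-0.53 to 0.0563, above 0 without control replicate 1 or ventilation replicate 1), none of which passed the test. Same-numbered arrays of different groups correlated from -0.21 to 0.53 in their deviations from the group means. Of these pairs 7 of 18 were over 0.1. Arrays of different number correlated from -0.53 to 0.33, with 11 of 36 pairs over 0.1. For 6 of 12 arrays the closest array of another group had their own number. Whether the numbers mark a shared batch is not given in the labels and was not settled by these values. With the replicate block 4 members were called after both, 3 of them the same, and 1263 of all genes. Low levels cannot be told from background here, since the table holds no detection calls.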
